A study of Homo sapiens with 12 samples.

Results

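The genes described here are EHD2, its 3 EHD relatives, and the genes that code for the coat of caveolae: EHD1, EHD2, EHD3, EHD4, CAV1, CAV2, PTRF, SDPR, PRKCDBP and PACSIN2. They are 10 of the 31654 symbol rows used from a table of gene expression in human glioblastoma cell lines. EHD2 was chosen by its measured values in U87TR and U87MG cells, listed at 0 in U87TR and well expressed in U87MG, so its values in that comparison are a description with no test. The other 9 were added by family and by their place in caveolae. RNA was sequenced from 3 libraries of each of 4 lines: U87TR and U251TR, lines made resistant to temozolomide, the alkylating drug given against glioblastoma, by repeated exposure to rising concentrations in culture, and their untreated parents U87MG and U251MG. All 4 lines were grown in DMEM with fetal serum. Each parent has 1 resistant line, and the labels do not say whether that line is a clone, whether the drug was present at harvest, or whether the 3 libraries of a line are separate cultures. The p-values therefore measure the spread between these libraries only.

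Caveolae are flask-shaped pits of the plasma membrane. Caveolins such as CAV1 and CAV2 sit in the membrane, and cavins, coded by PTRF (now CAVIN1), SDPR (CAVIN2) and PRKCDBP (CAVIN3), coat it from the cytosol. CAV1 and PTRF are each needed to form caveolae outside muscle. EHD proteins are dynamin-like ATPases that bend membranes: EHD2 forms a ring at the neck of the caveola and holds it at the cell surface, while EHD1, EHD3 and EHD4 act on recycling endosomes. PACSIN2 is an F-BAR protein that shapes the caveolar neck.

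Levels are FPKM, fragments scaled to transcript length and to the size of the library, a unit per length that allows genes to be set side by side. Genes with at least 1 FPKM in at least 3 libraries were tested, which kept 15449 genes and 9 of the 10 described here. SDPR was left out, since it did not exceed 0.07 FPKM in any library. Changes are log2 fold changes on the log2(FPKM + 1) scale with their standard error (SE), from 1 limma fit over the 12 libraries, and a gene was called at an adjusted p below 0.05. The table holds no counts, so the sequencing depth behind each value is unknown. The summed FPKM ran between 695282 and 785754 per library, and 13135 to 14122 genes reached 1 FPKM. U251MG replicate 2 was unlike the other U251MG libraries: its rank correlation with them was 0.977 and 0.978, and theirs with each other was 0.993. The 3 U87TR libraries carry codes from a range of numbers apart from that of all other libraries. Code range and resistance therefore cannot be told apart in the U87 comparison. The same split enters U87TR against U251TR and the difference between the U87 and U251 changes. As a check of the labelled cell type, 8 of 8 glioma and astroglial markers reached a mean of 1 FPKM in U251TR and in U251MG. Only 5 of 8 did in U87TR and in U87MG, and S100B and SOX2 of this list were at 0 in every U87MG library. GFAP averaged 1.75 FPKM in U87TR and 0.753 FPKM in U87MG. No marker of muscle or adipocytes, tissues rich in caveolae, reached a mean of 1 FPKM in any line. Of 5 endothelial markers, cells that also carry many caveolae, 2 (CDH5 and KDR) reached it in U251TR and in U251MG, with summed levels of 17.94 to 18.71 FPKM in U251TR and 9.57 to 10.57 FPKM in U251MG. The same sum was 0.71 to 0.89 FPKM in U87TR and 1.84 to 2.62 FPKM in U87MG, and its part in the results below was not tested. KDR averaged 1.57 FPKM in U87MG. Of 4 markers of blood cells and microglia, CSF1R reached 1 FPKM in the U87 lines alone, with means of 14.42 FPKM in U87TR and 12.67 FPKM in U87MG. Of 4 epithelial markers, KRT5 reached it in U251MG alone, with a mean of 2.09 FPKM. The part of these markers in the results was not tested either.

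The promoters of EHD2, CAV1 and CAV2 are shown because EHD2 was listed at 0 in U87TR and because CAV1 and CAV2, neighbours on chromosome 7, fell together in U251TR but not in U87TR, a difference that was called for both. Each is the stretch from 250 bases before to 50 bases after the start of the gene, from RefSeq on GRCh38.p14, written 5′ to 3′ on the + strand that carries the gene. They lie at chr19:47713172-47713471 for EHD2, chr7:116524759-116525058 for CAV1 and chr7:116499488-116499787 for CAV2. Capitals mark CG, the dinucleotide that can be methylated.
EHD2: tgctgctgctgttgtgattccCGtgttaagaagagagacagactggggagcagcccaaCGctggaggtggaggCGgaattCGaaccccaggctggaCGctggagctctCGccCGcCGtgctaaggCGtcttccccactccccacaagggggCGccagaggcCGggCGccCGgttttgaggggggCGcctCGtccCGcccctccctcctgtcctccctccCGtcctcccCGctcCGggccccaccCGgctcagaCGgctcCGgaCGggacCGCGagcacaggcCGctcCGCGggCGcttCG
CAV1: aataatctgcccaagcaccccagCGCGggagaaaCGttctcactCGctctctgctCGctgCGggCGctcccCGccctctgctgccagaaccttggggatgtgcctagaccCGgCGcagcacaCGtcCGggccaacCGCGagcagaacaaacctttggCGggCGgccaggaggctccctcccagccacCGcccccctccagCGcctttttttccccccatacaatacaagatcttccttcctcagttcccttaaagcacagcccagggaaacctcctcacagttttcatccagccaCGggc
CAV2: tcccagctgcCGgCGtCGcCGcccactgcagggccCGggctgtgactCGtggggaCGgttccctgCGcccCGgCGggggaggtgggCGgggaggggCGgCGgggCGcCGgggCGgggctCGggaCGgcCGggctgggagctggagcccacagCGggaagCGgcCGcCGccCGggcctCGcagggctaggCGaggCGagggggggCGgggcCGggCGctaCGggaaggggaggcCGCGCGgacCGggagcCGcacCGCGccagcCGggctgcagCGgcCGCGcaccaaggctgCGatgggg
The EHD2 stretch holds 30 CG, a number reached by 22.4% of the 35116 promoters in the table, whose median is 14. CAV1 holds 19 CG, reached by 42.9% of promoters, and CAV2 holds 43, reached by 4.98%. RefSeq also gives promoters at further starts, which are not shown. For CAV1 these hold 18 CG (44.5% of promoters) and 36 CG (12.7%), and for CAV2 33 CG (17.2%). Which start these lines use was not tested. Motifs were searched on both strands. In the stretches shown GGGCGG, the core of the GC box, occurs 1 time for EHD2, 3 times for CAV1 and 6 times for CAV2. This motif is in 45% of all promoters. It contains a CG and so overlaps the capitals. TATAAA, the TATA box, is in 11.5% of all promoters and CATTCC, the core bound by TEAD factors, is in 14%, and neither is in these 3 stretches. DNA methylation was not measured here.

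EHD2 was listed at 0 FPKM in each of the 3 U87TR libraries, against 57.49, 63.12 and 83.11 FPKM in the U87MG libraries. U87TR was the only line with none listed, and U87MG had the highest level of the 4 lines. U251TR had 14.02, 13.72 and 14.21 FPKM and U251MG had 16.67, 19.7 and 16.23 FPKM, so that the highest U251TR library stayed below the lowest U251MG library. In U251TR the log2 fold change was -0.30 (SE 0.13) and did not pass (adjusted p = 0.06). It passed when the fit held the 6 U251 libraries alone (adjusted p = 0.0416) and under median-of-ratios scaling, where it was -0.43 (adjusted p = 0.0126). Rescaled to equal sums it was -0.20 (adjusted p = 0.203), and without U251MG replicate 2 it was -0.22 (adjusted p = 0.163). In bulk RNA, fewer cells with a transcript and less transcript per cell cannot be told apart.

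Since EHD2 was chosen for being listed at 0, the other genes with that pattern are given as a description only. Of 7304 genes at 10 FPKM or more in every U87MG library, 4 were listed at 0 in every U87TR library: EHD2, the imprinted noncoding RNA gene MEG3, the germline antigen gene MAGEA1 and the sialyltransferase gene ST8SIA5. In the other direction MGMT, which codes for the repair enzyme that removes methyl groups from guanine, was listed at 0 in U87MG, of 7146 genes at that level in U87TR. In the U251 lines 0 of 7446 genes at that level in U251MG were listed at 0 in U251TR. The calcium-binding protein genes S100A8 and S100A9 were listed at 0 in U251MG, of 8024 genes at that level in U251TR.

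RNA of the genes beside EHD2 on chromosome 19 was measured in U87TR. DNA was not measured, so whether the EHD2 gene itself is intact was not tested. The 10 nearest tested genes, 5 on each side in the gene order of GRCh38.p14, had log2 fold changes between -0.23 and 0.52 in U87TR, and 1 of the 10 was called, beside 27.8% of all tested genes. GLTSCR1, the nearest tested gene before EHD2, averaged 3.52 FPKM in U87TR and 3.84 FPKM in U87MG. GLTSCR2, the nearest after it, averaged 40.07 FPKM in U87TR and 47.24 FPKM in U87MG (log2 fold change -0.23, adjusted p = 0.096). The called gene was SEPW1, which codes for a selenoprotein and was higher in U87TR by 0.37 (adjusted p = 0.0195). In U251TR 4 of the 10 were called, beside 53.2% of all tested genes, and PLA2G4C, a phospholipase gene, had the largest of these changes, 2.08 on the log2 scale.

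**Figure D1:**
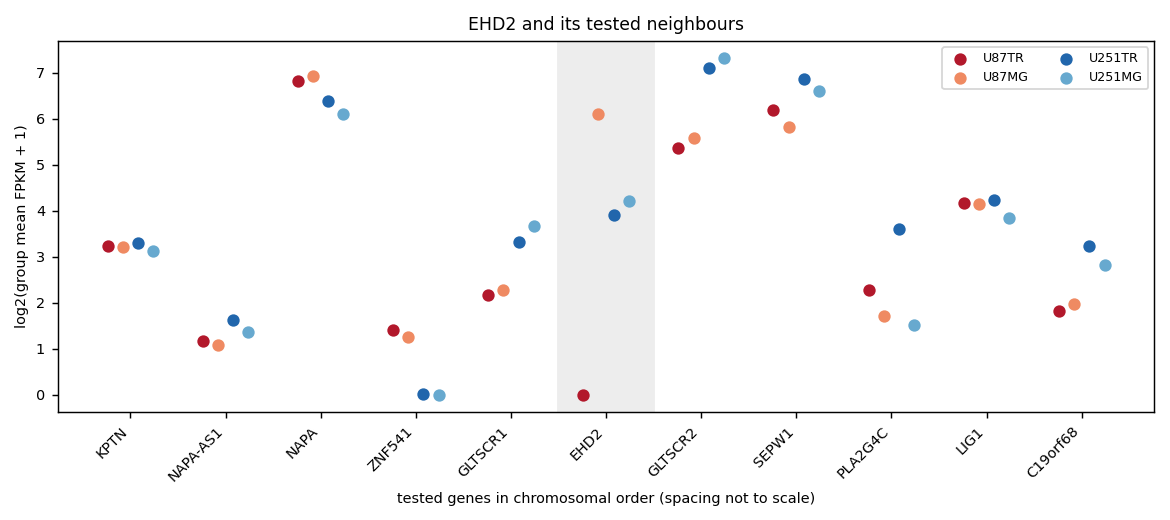
Group means of EHD2 and the 10 nearest tested genes on chromosome 19, as log2(mean FPKM + 1), in chromosomal order with equal spacing that is not to scale. Each point is the mean of 3 libraries of a line, and EHD2 is shaded. EHD2 lies at 0 in U87TR and at 67.91 FPKM in U87MG, while the U87TR and U87MG points of its neighbours lie close together.

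The 3 other EHD genes were expressed in U87TR. EHD1, which drives recycling from endosomes to the surface, had 61.22, 61.34 and 57.22 FPKM in U87TR, against 154.55, 143.55 and 112.88 FPKM in U87MG. It had 23.74, 26.63 and 26.25 FPKM in U251TR, against 35.59, 39.52 and 32.89 FPKM in U251MG. In both lines the resistant libraries lay below every parental library. On the log2 scale EHD1 fell by 1.17 in U87TR (SE 0.11, adjusted p = 1.04e-05) and by 0.48 in U251TR (SE 0.11, adjusted p = 0.0034). The difference between these changes was itself called, at -0.69 (SE 0.16, adjusted p = 0.00369).

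EHD4, which acts at early endosomes, had 12.34, 13.12 and 12.35 FPKM in U87TR, against 19.9, 20.11 and 19.96 FPKM in U87MG. It had 37.02, 39.07 and 40.97 FPKM in U251TR, against 115.26, 68.93 and 110.94 FPKM in U251MG. Groups did not overlap in either line, and the lowest U251MG library was replicate 2. On the log2 scale EHD4 fell by 0.63 in U87TR (SE 0.15, adjusted p = 0.00951) and by 1.28 in U251TR (SE 0.15, adjusted p = 2.33e-05). Without U251MG replicate 2 the U251TR change was -1.51. The difference of 0.65 between the changes passed (SE 0.22, adjusted p = 0.0262), but not when U251MG replicate 1 was left out (adjusted p = 0.0627), nor without U251MG replicate 3 (adjusted p = 0.066), U251TR replicate 1 (adjusted p = 0.0581) or U87TR replicate 2 (adjusted p = 0.0562).

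EHD3, a close relative of EHD1 known from heart muscle, was the weakest EHD gene wherever EHD2 was present. It had 8.84, 7.72 and 8.34 FPKM in U87TR, against 9.26, 9.41 and 9.65 FPKM in U87MG. That is a log2 change of -0.17 (SE 0.16, adjusted p = 0.472). It had 1.76, 1.62 and 1.77 FPKM in U251TR, against 0.78, 1.9 and 0.87 FPKM in U251MG. U251MG replicate 2 was the highest of those 6 libraries. The change was 0.35 on the log2 scale (SE 0.16, adjusted p = 0.0784), and without that library it was 0.57 (adjusted p = 0.000245).

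The summed FPKM of the 4 EHD genes was 80.83 ± 2.53 in U87TR and 234.3 ± 7.96 in U87MG (SD, n = 3 each). In U251TR it was 80.26 ± 3.4 and in U251MG 153.1 ± 20.3 (SD, n = 3 each). Without EHD2 the U87 sums were 80.83 ± 2.53 in U87TR and 166.4 ± 21.4 in U87MG, so the sum stayed lower in U87TR when the chosen gene was left out. EHD1 made up 74.1% ± 0.616 of the summed EHD level in U87TR and 58.3% ± 7.34 in U87MG. EHD2 made up 0% in U87TR and 29.1% ± 6.83 in U87MG. Of the sum without EHD2, EHD1 made up 74.1% ± 0.616 in U87TR and 82.1% ± 2.56 in U87MG, so the order of its share in the 2 lines rests on the chosen gene. In the U251 lines EHD4 was the largest share, with 48.6% ± 0.556 in U251TR and 63.5% ± 9.07 in U251MG, and EHD2 held 17.4% ± 0.762 in U251TR and 11.7% ± 2.98 in U251MG.

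**Figure D2:**
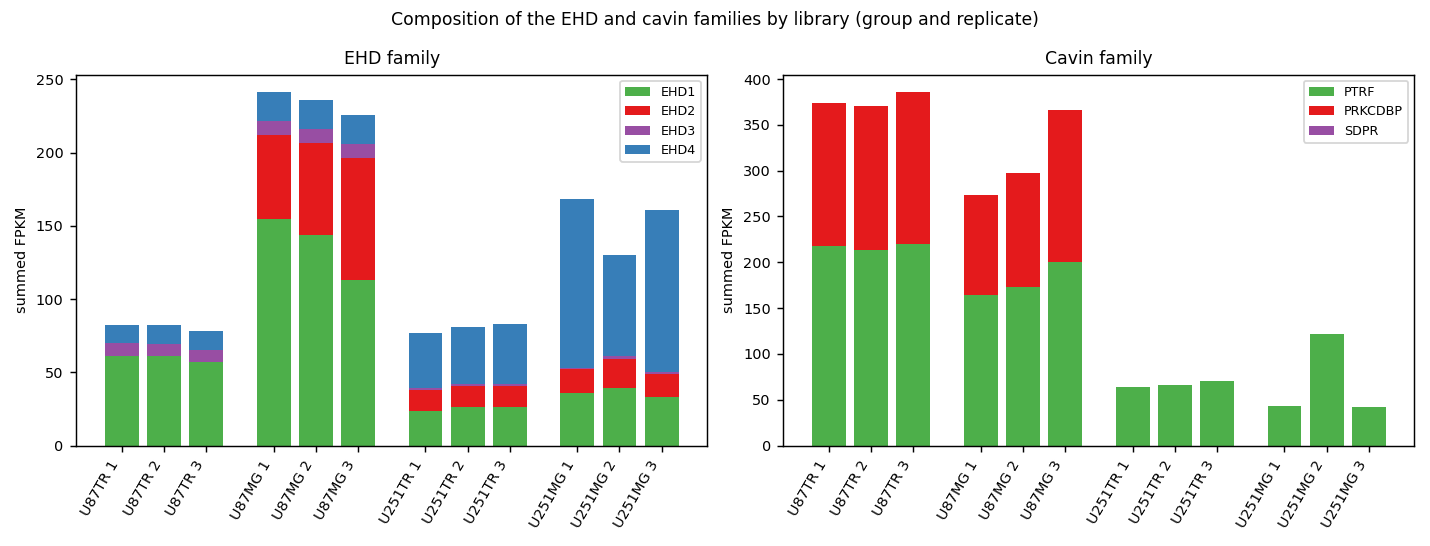
Summed FPKM (linear axis from 0) of the EHD genes and of the cavin genes in each of the 12 libraries, with 1 bar per library and colours for the genes. The U87TR bars have no EHD2 segment, and the PRKCDBP segment is present in the U87 libraries and too small to see in the U251 libraries.

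CAV1, the caveolin without which caveolae do not form, was the most abundant of these genes in both U87 lines. It had 460.08, 429.4 and 416.57 FPKM in U87TR, against 305.21, 298.82 and 410.73 FPKM in U87MG. The 2 groups did not overlap, but U87MG replicate 3 came close to the lowest U87TR library. The log2 fold change was 0.38 (SE 0.15) and did not pass (adjusted p = 0.0862). It passed without U87MG replicate 3, at 0.53 (adjusted p = 0.0208), and in the fit without U251MG replicate 2 (adjusted p = 0.0203).

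In the U251 lines CAV1 had 54.68, 59.86 and 51.78 FPKM in U251TR, against 164.68, 109.53 and 153.71 FPKM in U251MG. Every U251TR library lay below every U251MG library. The log2 change of CAV1 was -1.33 (SE 0.15, adjusted p = 1.63e-05), and it was -1.51 without U251MG replicate 2, the lowest parental library. The difference between the U87 and U251 changes of CAV1 was 1.71 (SE 0.21, adjusted p = 5.2e-05).

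CAV2, the partner that joins CAV1 in mixed oligomers, had 15.61, 15.47 and 14.4 FPKM in U87TR, against 9.53, 9.5 and 8.49 FPKM in U87MG. All 3 U87TR libraries were above all 3 U87MG libraries. This change of 0.67 on the log2 scale (SE 0.23) missed the threshold (adjusted p = 0.0514). It passed in the limma fit of the 6 U87 libraries alone (adjusted p = 0.00134) and without U251MG replicate 2 (adjusted p = 2.92e-05). It also passed under median-of-ratios scaling (adjusted p = 0.0494), quantile normalization (adjusted p = 0.0317) and rescaling to equal sums (adjusted p = 0.041). So it did with a pseudocount of 0.1, a filter at 5 FPKM, or U251MG replicate 1 or 3 left out. In the remaining settings it did not pass. In U251TR CAV2 had 36.12, 34.9 and 32.44 FPKM, against 111.56, 48.95 and 106.61 FPKM in U251MG. CAV2 fell by 1.25 there (SE 0.23, adjusted p = 0.000717), and by 1.63 without U251MG replicate 2, the lowest of the parental libraries. The difference between the U87 and U251 changes was 1.92 (SE 0.33, adjusted p = 0.00054).

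The balance of the 2 caveolins differed more between the lines of origin than with resistance. CAV1 over CAV2 was 28.7 ± 0.877 in U87TR and 37.3 ± 9.61 in U87MG (SD, n = 3 each), with U87MG replicate 3 at 48.4. It was 1.61 ± 0.101 in U251TR and 1.72 ± 0.45 in U251MG. The ranges of the U251 lines overlapped, at 1.51 to 1.72 in U251TR and 1.44 to 2.24 in U251MG, while those of the U87 lines did not, at 27.8 to 29.5 in U87TR and 31.5 to 48.4 in U87MG.

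**Figure D3:**
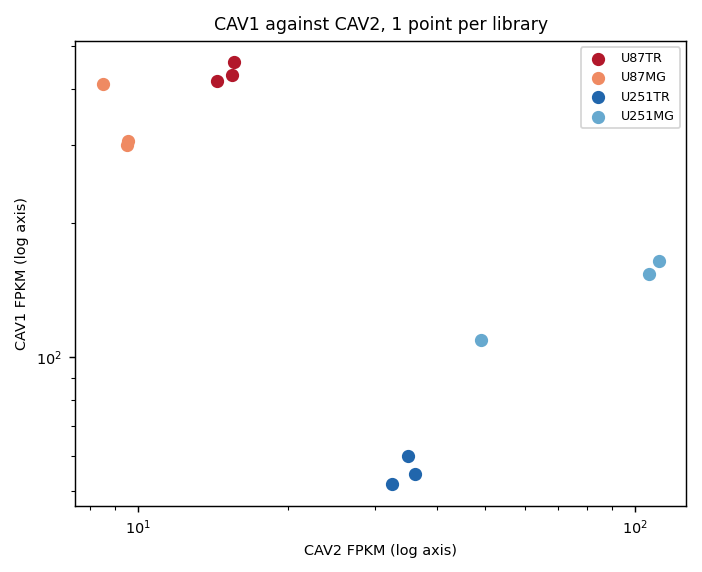
CAV1 FPKM against CAV2 FPKM, both on log axes, with 1 point per library. The U251TR points lie below and left of the U251MG points on both axes, while the U87TR points lie right of and above the U87MG points, and U251MG replicate 2 lies between the U251TR points and the other 2 U251MG points.

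Of the 10 nearest tested genes around the CAV2 and CAV1 pair on chromosome 7, 9 were called in U251TR, where 53.2% of all tested genes were. Of these, 8 were higher in U251TR, the direction opposite to that of the pair, as were 33.6% of all tested genes. Neighbour calls were read from the main fit alone. There 63.2% of all called genes were higher in U251TR, against 50.9% under median-of-ratios scaling. MDFIC, which codes for a protein with a MyoD inhibitor domain, had a log2 rise of 2.59 (adjusted p = 1.92e-08), and the receptor kinase gene MET rose by 0.53 (adjusted p = 0.0328). TES, the nearest tested gene on the CAV2 side, which codes for a focal adhesion protein, fell by 0.64 (adjusted p = 0.00349). In U87TR 2 of the 10 were called, beside 27.8% of all tested genes, MDFIC at -0.42 and CTTNBP2, a gene for a cortactin-binding protein, at -0.41.

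Among the cavins, PTRF, the cavin that forms the caveolar coat, had 218.27, 213.67 and 219.91 FPKM in U87TR, against 163.96, 173.37 and 199.94 FPKM in U87MG. The groups did not overlap, and the log2 fold change of 0.28 (SE 0.30) did not pass (adjusted p = 0.542). Its SE comes from a spread shared by all 4 lines. It passed when the 6 U87 libraries were fitted alone (adjusted p = 0.0417) and when U251MG replicate 2 was left out (adjusted p = 0.011).

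PTRF had 64.3, 65.81 and 70.67 FPKM in U251TR, against 42.77, 122.11 and 42.43 FPKM in U251MG. U251MG replicate 2 lay above and the other 2 parental libraries below the U251TR libraries. The log2 fold change was 0.14 (SE 0.30, adjusted p = 0.733), and without that library it was 0.64 (adjusted p = 4.63e-05), so 1 library decides this value. CAV1 over PTRF was 0.85, 0.91 and 0.733 in U251TR, against 3.85, 0.897 and 3.62 in U251MG.

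PRKCDBP, the cavin that binds protein kinase C delta, reached 0.1 FPKM in the U87 lines alone. It had 156.1, 157.06 and 165.73 FPKM in U87TR, against 109.8, 124.46 and 166.44 FPKM in U87MG, and the groups overlapped. The change was 0.28 on the log2 scale (SE 0.13, adjusted p = 0.132), and without U87MG replicate 3 it was 0.45 (adjusted p = 0.00494). It had 0, 0.08 and 0 FPKM in U251TR and 0, 0 and 0.06 FPKM in U251MG, and no fold is given there. PTRF over PRKCDBP was 1.36 ± 0.0357 in U87TR and 1.36 ± 0.148 in U87MG (SD, n = 3 each). SDPR, the cavin that curves the membrane, ranged over 0.01 to 0.06 FPKM in U87TR, 0 to 0.02 in U87MG, 0 to 0.04 in U251TR and 0.01 to 0.07 in U251MG. Of the 3 cavins described, PTRF was the only one to reach 0.1 FPKM in a U251 library. MURC, the cavin of muscle (now CAVIN4), which is on the list of other caveolar genes, averaged 0.85 FPKM in U251TR and 0.707 FPKM in U251MG.

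PACSIN2 stayed between 26.31 and 40.85 FPKM in all 12 libraries. It had 30.56, 30.77 and 28.77 FPKM in U87TR, against 26.31, 26.66 and 28.16 FPKM in U87MG, and the log2 change was 0.15 (SE 0.08, adjusted p = 0.178). It had 37.35, 38.1 and 40.85 FPKM in U251TR, against 37.59, 34.46 and 39.59 FPKM in U251MG. The U251 groups overlapped, and the log2 fold change was 0.06 (SE 0.08, adjusted p = 0.545), with the sign turned under median-of-ratios scaling and quantile normalization.

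**Figure D4:**
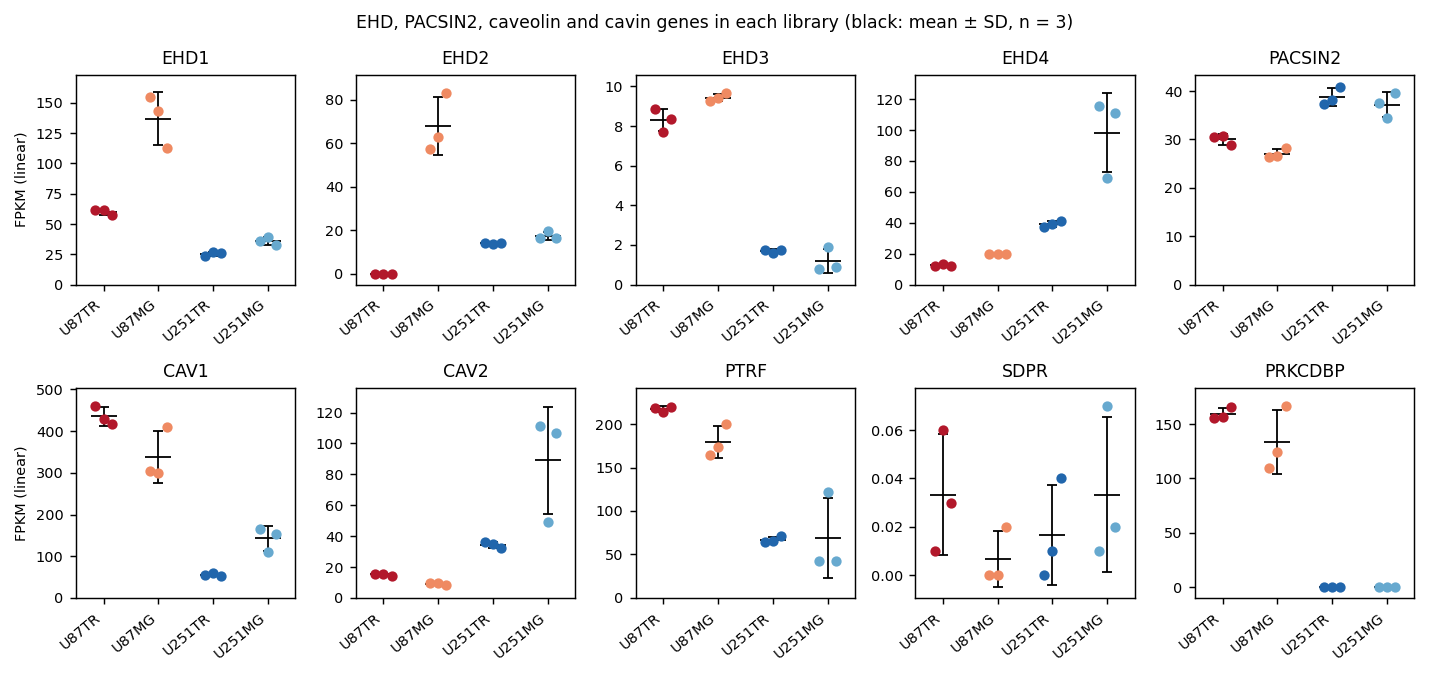
FPKM of each of the 10 genes in each library, on linear axes that differ between panels, with the mean and SD of 3 libraries in black. EHD2 sits at 0 in U87TR, and EHD1 and EHD4 are lower in each resistant line than in its parent. U251MG replicate 2 is apart from its group for EHD3, EHD4, CAV1, CAV2 and PTRF.

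Counted over the comparisons, 4 of the 9 tested genes were called in U251TR against U251MG, where 53.2% of the 15449 genes were. The 9 include PRKCDBP, which entered the test through its U87 level. At 0 to 0.08 FPKM in the U251 libraries it could hardly be called. The 4, EHD1, EHD4, CAV1 and CAV2, were lower in U251TR, where 19.6% of tested genes were called lower and 33.6% higher, and none of the 9 was called higher. At an unadjusted p below 0.05 the limma fit gave 6 of the 9, with EHD2 lower and EHD3 higher added. The median log2 fold change of the 9, PRKCDBP included, was -0.30, beside 0.10 over all tested genes. In U87TR against U87MG, 2 of 8 were called besides EHD2, against 27.8% of tested genes. Those 2, EHD1 and EHD4, were lower, where 17.2% of tested genes were called lower and 10.6% higher. The median of the 8 was 0.21, beside -0.05 over all tested genes. The count in U87TR was 5 without U251MG replicate 2 and 4 without U87MG replicate 3. For the difference between the 2 changes, 4 of 8 were called against 47.6% of tested genes. The 8 include PRKCDBP, whose U251 part lies between levels near 0. Without regard to direction, the shares called were near those of all genes in these comparisons. The difference is made from the same libraries as both resistance comparisons. Without U251MG replicate 2 the counts were 6 in U251TR, where EHD3 and PTRF were added, and 6 for the difference, where EHD3 (-0.74) and PTRF (-0.36) were added.

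**Figure D5:**
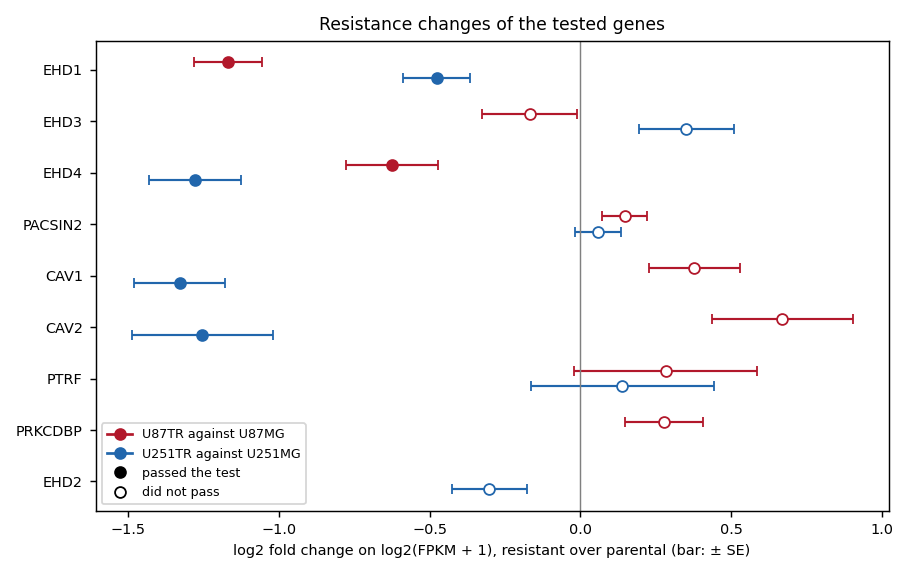
Log2 fold change of each tested gene on log2(FPKM + 1) with its SE, U87TR over U87MG in red and U251TR over U251MG in blue, with filled points for genes called at an adjusted p below 0.05. EHD1 and EHD4 are left of 0 in both comparisons, and CAV1 and CAV2 are called left of 0 in U251TR and lie right of 0 without a call in U87TR. EHD2 in U87TR and PRKCDBP in U251TR are not drawn.

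The 2 parental lines differed in these genes, and so did the 2 resistant lines. In U87MG against U251MG 9 of 9 tested genes were called, 6 higher and 3 lower in U87MG, where 72.3% of tested genes were called. That count includes EHD2, whose U87MG level took part in its choice, and PRKCDBP, which entered the test through its U87 level and so had to differ. CAV2 was lower in U87MG than in U251MG, with a log2 fold change of -3.06 (SE 0.23 and adjusted p = 1.59e-07), and so was EHD4, with -2.21 (SE 0.15, adjusted p = 6.27e-08). EHD3 was higher by 2.29 (SE 0.16, adjusted p = 5.64e-08) and EHD1 by 1.89 (SE 0.11, adjusted p = 1.48e-08). CAV1 was higher by 1.25 (SE 0.15) and PTRF by 1.54 (SE 0.30), and PACSIN2 had -0.44 (SE 0.08). In U87TR against U251TR 8 of 8 genes other than EHD2 were called, against 72.6% of tested genes, and PRKCDBP again had to be among them. CAV1 was 2.95 higher in U87TR than in U251TR (SE 0.15, adjusted p = 4.04e-09) and CAV2 was lower, at -1.13 (SE 0.23, adjusted p = 0.000815). PACSIN2 was lower, at -0.36 (adjusted p = 0.000997), and this call was lost under median-of-ratios scaling (adjusted p = 0.454) and quantile normalization (adjusted p = 0.116).

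In order of level, EHD2 ran U87MG, U251MG, U251TR, U87TR, with no overlap between neighbours. Its U87MG and U87TR levels took part in its choice, so their places are a description only. The share of all tested genes without overlap was not counted. Between the lines of origin, 72.3% of all tested genes were called for the parents and 72.6% for the resistant lines. EHD1 ran U87MG, U87TR, U251MG, U251TR and EHD4 ran U251MG, U251TR, U87MG, U87TR, again with no overlap. CAV1 ran U87TR, U87MG, U251MG, U251TR and CAV2 ran U251MG, U251TR, U87TR, U87MG, with no overlap. The neighbours that overlapped were U251TR and U251MG for EHD3, PTRF, PRKCDBP and PACSIN2, and U87TR and U87MG for PRKCDBP. For SDPR all neighbours overlapped.

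Other genes of caveolae and membrane bending moved in both directions. Of 15 listed genes, 13 were tested. In U251TR 7 rose and 3 fell, beside 33.6% and 19.6% of all tested genes, and the median log2 fold change was 0.36, beside 0.10 over all tested genes. FLNA, which codes for filamin A, the actin crosslinker that ties CAV1 to the cytoskeleton, fell to 204.1 ± 6.68 FPKM in U251TR, against 610.1 ± 64.9 FPKM in U251MG (SD, n = 3 each). As a log2 change this was -1.57 (SE 0.08, adjusted p = 1.59e-08). DNM1, a dynamin that cuts vesicles from the membrane, rose by 1.23 (SE 0.17, adjusted p = 9.08e-05). FLOT2, a flotillin of membrane domains apart from caveolae, rose by 1.06 (SE 0.08, adjusted p = 8.54e-07), and NOSTRIN, an F-BAR protein that binds nitric oxide synthase, rose by 0.81 (SE 0.14, adjusted p = 0.000457). In U87TR 2 rose and 2 fell, beside 10.6% and 17.2% of all tested genes, with a median of 0.06, beside -0.05 over all tested genes. PACSIN3, the PACSIN of muscle caveolae, fell by 0.98 (SE 0.13, adjusted p = 0.000141) and ABL1, a tyrosine kinase, fell by 0.38 (adjusted p = 0.0299). ROR1, a receptor that scaffolds caveolin and cavin, rose by 0.66 (adjusted p = 0.00147) to 0.857 FPKM in U87TR, against 0.163 FPKM in U87MG. FLOT2 rose by 0.25 (adjusted p = 0.0429).

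Of 20 EHD partners and recycling endosome genes, 19 were tested. In U251TR 8 were called, where 53.2% of all tested genes were: 5 rose and 3 fell (median 0.14). In U87TR 6 were called, where 27.8% of all tested genes were: 1 rose and 5 fell (median -0.16). EHBP1L1, which codes for an EHD-binding protein, had 29.51 ± 1.94 FPKM in U87TR and 71.3 ± 7.58 FPKM in U87MG (SD, n = 3 each), or -1.24 as a log2 change (SE 0.10, adjusted p = 2.6e-06). It averaged 1.46 FPKM in U251TR and 1.16 FPKM in U251MG. The membrane-curving proteins AMPH and BIN1 fell in U87TR, by 0.45 (adjusted p = 0.0203) and 0.41 (adjusted p = 0.00897), and rose in U251TR, by 0.86 (adjusted p = 0.000126) and 0.78 (adjusted p = 3.75e-05). ARF6, a GTPase of the surface recycling route, fell by 0.41 in U87TR (adjusted p = 0.0215). In U251TR RAB11A, the GTPase of recycling endosomes, rose by 0.90 (adjusted p = 6.46e-05) and its effector RAB11FIP5 by 0.94 (adjusted p = 1.74e-06).

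Clathrin is the coat of the other main route of uptake, and all 20 listed genes were tested. In U251TR 6 rose and 1 fell (median 0.11), beside 33.6% and 19.6% of all tested genes. In U87TR none rose and 5 fell (median -0.12), beside 10.6% and 17.2% of all tested genes, with 6 at an unadjusted p below 0.05 in the limma fit. CLTC, the clathrin heavy chain, had 81.99 ± 4.15 FPKM in U87TR and 162.2 ± 16.2 FPKM in U87MG (SD, n = 3 each), or -0.97 as a log2 change (SE 0.09, adjusted p = 1.04e-05). The adaptor subunit AP2A2 fell by 0.55 (adjusted p = 0.00593) and epsin, EPN1, by 0.35 (adjusted p = 0.00932). HIP1, which links clathrin to actin, fell by 0.56 in U87TR (adjusted p = 0.00764) and rose by 1.44 in U251TR (adjusted p = 2.6e-06). The adaptor subunits AP2A1 and AP2B1 and the light chain CLTA rose in U251TR by 0.78, 0.48 and 0.77 (adjusted p = 9.62e-05, 0.000398 and 3.86e-05).

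Likeness to the pattern of EHD2 over the 12 libraries was ranked by Pearson r on log2(FPKM + 1). Ranked were 9314 genes with a plain symbol and a mean of at least 10 FPKM in a line. Other symbols, such as LINC, LOC, MIR and clone names and those with a hyphen, were left out. Most like EHD2 were FAM89B (0.98), ANAPC11 (0.97), HGS (0.96), NAV2 (0.95) and E2F7 (0.95). These libraries are 4 lines of 3, so the values mostly rank line means and carry no p. Each of the 5 had its lowest mean in U87TR and its highest in U87MG. That order follows from ranking by likeness to EHD2, which was chosen for its U87TR and U87MG values. HGS, a sorting protein of endosomes, averaged 43.94 FPKM in U87TR and 106.4 FPKM in U87MG. The cell cycle repressor gene E2F7 averaged 0.0133 FPKM in U87TR and 28.29 FPKM in U87MG. No caveolar gene was among the 5 genes most like EHD2, a description that rests on the same chosen values. Here r with EHD2 was -0.29 for CAV1, -0.30 for PTRF and 0.02 for CAV2, and 0.25 for EHD1 and 0.41 for EHD4. The genes most like CAV1 were NAV1, COL7A1, MAPRE2, SPTBN1 and HTRA1, each with r of 0.99. Within the caveolar genes CAV1 had r of 0.90 with PRKCDBP, 0.77 with PTRF, -0.59 with CAV2 and -0.82 with PACSIN2.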

How the data were processed

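RNA from 12 libraries (4 lines, 3 each) was sequenced as 150 bp paired reads, per the labels. The deposited FPKM values were made with the aligner STAR (version 2.5.2b) and the quantifier RSEM (version 1.2.31), both per the submitters' processing notes. These notes give hg19 as the build, while the design text gives hg38. The only coordinates given are those of the promoters, from RefSeq on GRCh38.p14. The deposited table holds gene values to 2 decimals that no header names. They were taken as FPKM because the sum of value times gene length came to 0.761 to 0.809 of the FPKM expectation with the median transcript length, and to 2.007 to 2.172 with the longest. Of 31681 rows, 27 with symbols turned into dates were left out.

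The test was limited to genes that reached 1 FPKM in 3 or more libraries. A group-means model of log2(FPKM + 1) over the 12 libraries was fitted in limma 3.58.1 (R 4.3.3) with trended, robust moderation, two-sided tests and Benjamini-Hochberg adjustment over 15449 genes, with a threshold of 0.05. The fit was tested on simulated data. For a gene listed at 0 throughout a line, values are given in place of a fold. The added 1 FPKM understates the fold of weakly expressed genes. The 21 other settings changed the pseudocount (0.1 or 5), the filter, the scaling, a replicate block, the libraries fitted, or left out 1 library. Single genes outside those described, such as neighbours and genes of the lists, were followed in the main fit alone. The genes and lists described were chosen with earlier results of these data known. Of each list, up to 4 called genes per resistance comparison are named, by size of change, and of each likeness search the first 5. Replicate numbers were not used to pair the libraries in the main fit. Same-number correlations of deviations ran from -0.058 to 0.13, and different-number correlations from -0.136 to 0.102. Such a check can fail to show pairing without excluding it. Old symbols were matched to gene names and order of GRCh38.p14. Promoters come from RefSeq. PECAM1, MYOD1, MYOG and AIF1 were not analysed here.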

Additional observations from a re-analysis of the deposited data

Results flagged for a closer look

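The change with resistance differed between the lines, by the interaction term of the limma fit, for 4 of the genes described and for 16 of the named genes of their lists. The separate code range of the U87TR libraries cannot be told apart from this difference. Each value is the U87 change minus the U251 change on the log2 scale, and 47.6% of all tested genes passed that test. Among the genes described it was 1.92 for CAV2 (adjusted p = 0.00054), 1.71 for CAV1 (adjusted p = 5.2e-05), 0.65 for EHD4 (adjusted p = 0.0262) and -0.69 for EHD1 (adjusted p = 0.00369). EHD1 and EHD4 were lower in each resistant line, EHD1 by more in U87TR and EHD4 by more in U251TR.

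Among caveola and membrane-bending genes the difference was 1.71 for FLNA, -1.48 for PACSIN3, -1.23 for DNM1, -0.8 for FLOT2 and -0.78 for NOSTRIN. Among EHD partners and recycling endosome genes it was -1.43 for EHBP1L1, -1.3 for AMPH, -1.19 for BIN1, -1.07 for RAB11A and -0.7 for RAB11FIP5. Among clathrin coat genes it was -2.01 for HIP1, -1.27 for CLTC, -0.97 for AP2A1, -0.93 for CLTA, -0.86 for AP2A2 and -0.48 for AP2B1. These 16 genes were named for the size of their change, FLOT2, AMPH, BIN1 and HIP1 in both resistance comparisons and the other 12 in 1 of them. Both comparisons enter the difference, so the choice favoured a call. ROR1, ABL1, ARF6 and EPN1, also named, were not called. Over whole lists, 7 of 13 caveola and membrane-bending genes and 8 of 19 EHD partner and recycling endosome genes were called. So were 9 of 20 clathrin coat genes, beside 47.6% of all tested genes. The median difference over all tested genes was -0.17, and -0.02 under median-of-ratios scaling.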

How the results depend on the processing

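Over the log2 fold changes of the genes described in the 5 comparisons and the 21 other settings, 816 values kept their direction and their side of the threshold, 25 newly passed, 7 no longer passed and 5 changed sign. PRKCDBP between the lines of origin, which had to differ, and EHD2 between the parents, whose U87MG level took part in its choice, are counted. PRKCDBP in U251TR against U251MG and EHD2 in the comparisons with U87TR are not. The sign changed for PTRF in U251TR, whose leave-one-out values ran from -0.113 to 0.639, for PACSIN2 in U251TR under median-of-ratios scaling (-0.076) and quantile normalization (-0.012), and for the PTRF difference between the lines, whose leave-one-out values ran from -0.356 to 0.395. The number of the genes called in U87TR was 4 under quantile normalization, 4 with the libraries of the comparison alone, and 2 to 5 with 1 library left out. Called genes over the whole table ran from 7006 to 8819 in U251TR and from 2914 to 5607 in U87TR on leaving out 1 library, the highest in both without U251MG replicate 2. With a replicate block 8119 genes were called in U251TR and 4094 in U87TR, and the genes described kept their counts of 4 and 2. Among called genes, 63.2% were higher in U251TR, against 50.9% under median-of-ratios scaling 50.5% under quantile normalization and 72.1% rescaled to equal sums; in U87TR 38.1% were higher, against 45.2%, 48.5% and 46.2% under the same scalings. The causes of these shifts were not tested. The table holds no counts, so the depth behind a value listed at 0 is not known.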
